A study of Arabidopsis thaliana with 6 samples.

Results

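The cyclins of types A, B and D, the B-type cyclin-dependent kinases (CDKs) and the KRP inhibitors were followed through root transcriptomes of *CEPDL2ox* and WT *Arabidopsis thaliana*. *CEPDL2ox* plants carried the *CEPDL2* coding sequence, which encodes a small glutaredoxin-like polypeptide, behind the cauliflower mosaic virus 35S promoter, which is active in most tissues. WT was the Col ecotype without the transgene, and each group had 3 root libraries from plants aged 10 days on 10 mM nitrate. The sources used here give neither the number of plants per library nor the transgenic line sequenced, so p-values measure only the spread between these libraries. Members were the genes whose name in the tables starts with CYCA, CYCB, CYCD, CDKB or KRP and a digit, 42 of 33557 genes. They comprised 10 A-type, 11 B-type and 10 D-type cyclins, 4 B-type CDKs and 7 KRPs. All 42 identifiers known for these families were found under such a name. The rule uses names and no measured value.

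A plant cell divides when a CDK binds a cyclin, and the cyclin decides when and on what the kinase acts. D-type cyclins bring signals from hormones, sugars and nutrients to the start of the cycle, A-type cyclins act from DNA synthesis to entry into mitosis, and B-type cyclins act with B-type CDKs at mitosis. KRPs, the plant relatives of the animal inhibitor p27, bind cyclin-CDK complexes and hold them inactive. In a root these genes are best known from the meristem at the tip and from the pericycle cells that form lateral roots.

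The label of the libraries was checked first. *CEPDL2* was at 7948, 8838 and 8337 FPKM (fragments scaled to transcript length and to the mapped reads of the library) in *CEPDL2ox* libraries and at 3.27, 5.78 and 9.45 FPKM in WT libraries. All 12 root markers averaged over 1 FPKM, and the summed level of the 5 markers of the root apex was between 50.7 and 55.1 FPKM in *CEPDL2ox* and between 47.3 and 55.7 FPKM in WT. Single root markers differed more than that sum. *PLT1*, which maintains the root stem cells, averaged 7.06 ± 1.11 FPKM in *CEPDL2ox* and 9.25 ± 1.54 FPKM in WT (SD, n = 3 each, no overlap, limma adjusted p = 0.24). *EXPA7*, an expansin of root hairs, was called higher (log2 fold change 0.44, adjusted p = 0.027), and *WER*, a regulator of hairless epidermal cells, had a log2 fold change of -0.32 (adjusted p = 0.17). *PLT1* and *EXPA7* had the lowest and highest log2 fold changes of the 12 root markers, of which 9 were above 0. The other apex markers were at 0.02 (*PLT2*), 0.05 (*SCR*), 0.13 (*SHR*) and 0.16 (*WOX5*). Of the epidermal ones, *COBL9* was at 0.09 and *GL2* at -0.10. The part of these tissue markers in the results was not tested. The 11 markers of green aerial tissue summed to between 74.4 and 166.4 FPKM in *CEPDL2ox* libraries, and to 1566, 207.2 and 151.4 FPKM in WT replicates 1, 2 and 3. *LHCB1.1* was at 73.3 FPKM in WT replicate 1 and listed at 0 in the other 5 libraries. WT replicate 1 thus stood apart. Depth, estimated from the lowest values, was between 5150000 and 5520000 reads in *CEPDL2ox* and between 5880000 and 6250000 reads in WT libraries.

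Promoters were examined because many mitotic genes of plants are switched on through the mitosis-specific activator element, whose core is AACGG. The 250 bases before the annotated start of each gene were read from RefSeq's annotation of TAIR10.1 and searched for AACGG on both strands. The lower end of the gene was the same in the deposited TAIR10 positions for 7389 of 26690 genes compared. The windows can therefore lie apart from the TAIR10 gene. For *KRP6* the window begins at chr3:6617952 and the TAIR10 position ends at chr3:6617696. CCGTT is therefore a match too. At least 1 match was found in 16 of 42 members (38.1%), against 20.6% of 26689 protein-coding genes. At least 2 were found in 13 members (31.0%), against 3.62% of all. The B-type cyclins *CYCB1-1*, *CYCB1-2*, *CYCB1-3*, *CYCB2-1*, *CYCB2-2* and *CYCB2-3* each held 3 or 4 matches, and the other 5 of 11 held none. Among the rest, 4 of 10 A-type cyclins, 1 of 10 D-type cyclins, 1 of 4 B-type CDKs and 4 of 7 KRPs held a match. The E2F sites TTCCCGC or TTGGCGC, searched likewise, were found in 1 member, *CYCD3-3*, which is 2.38% against 1.92% of all. A match is a run of letters, not a shown binding site.

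The 3 promoters below were chosen to show *CYCB1-2*, the B-type cyclin with the highest level and with 4 matches, *KRP1*, the member with the most matches (6), and *KRP6*, with none. They lie at chr5:1861704-1861953, chr2:9978091-9978340 and chr3:6617952-6618201 in TAIR10.1, all on the minus strand. Each is written 5′ to 3′ as its gene reads, and capitals mark AACGG or CCGTT.
CYCB1-2: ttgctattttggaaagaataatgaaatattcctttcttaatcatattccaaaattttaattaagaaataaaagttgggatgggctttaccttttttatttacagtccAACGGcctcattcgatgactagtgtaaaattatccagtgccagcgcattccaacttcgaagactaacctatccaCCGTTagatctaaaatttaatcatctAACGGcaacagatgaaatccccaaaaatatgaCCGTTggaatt
KRP1: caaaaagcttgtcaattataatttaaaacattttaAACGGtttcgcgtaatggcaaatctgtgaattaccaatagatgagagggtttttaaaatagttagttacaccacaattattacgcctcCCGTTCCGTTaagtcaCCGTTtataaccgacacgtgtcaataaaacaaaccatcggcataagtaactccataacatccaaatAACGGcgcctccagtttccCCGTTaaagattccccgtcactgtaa
KRP6: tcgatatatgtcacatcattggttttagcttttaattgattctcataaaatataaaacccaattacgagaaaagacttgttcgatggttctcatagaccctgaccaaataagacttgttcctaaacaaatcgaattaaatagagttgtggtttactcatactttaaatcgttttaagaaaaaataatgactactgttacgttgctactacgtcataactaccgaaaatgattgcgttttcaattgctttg
In *KRP1* a pair of the matches stand side by side without a gap.

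FPKM is scaled to transcript length, so levels may be set side by side between genes. Of the 42 members, 37 averaged 1 FPKM or more across the 6 libraries and were tested. The other 5 were near or at 0. *CYCA3-3*, *CYCB2-5* and *CYCD7-1*, a cyclin of the division that makes guard cells, were listed at 0 in all 6 libraries. *CYCB1-5* was between 0 and 0.43 FPKM in *CEPDL2ox* and between 0 and 0.39 FPKM in WT. *CYCA1-2*, known for its role in meiosis, was between 0.14 and 1.07 FPKM in *CEPDL2ox* and between 0.53 and 1.00 FPKM in WT. The highest member was *CYCD3-2*, with a mean of 38.3 FPKM over all libraries, and the lowest tested one was *CYCD4-2*, with 1.38 FPKM. At that depth *CYCD4-2* rests on an estimated 4 to 16 reads per library and *CYCD3-2* on 257 to 334. The coefficient of variation within a group was 10.4% in *CEPDL2ox* and 9.99% in WT for the median member.

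**Figure D1:**
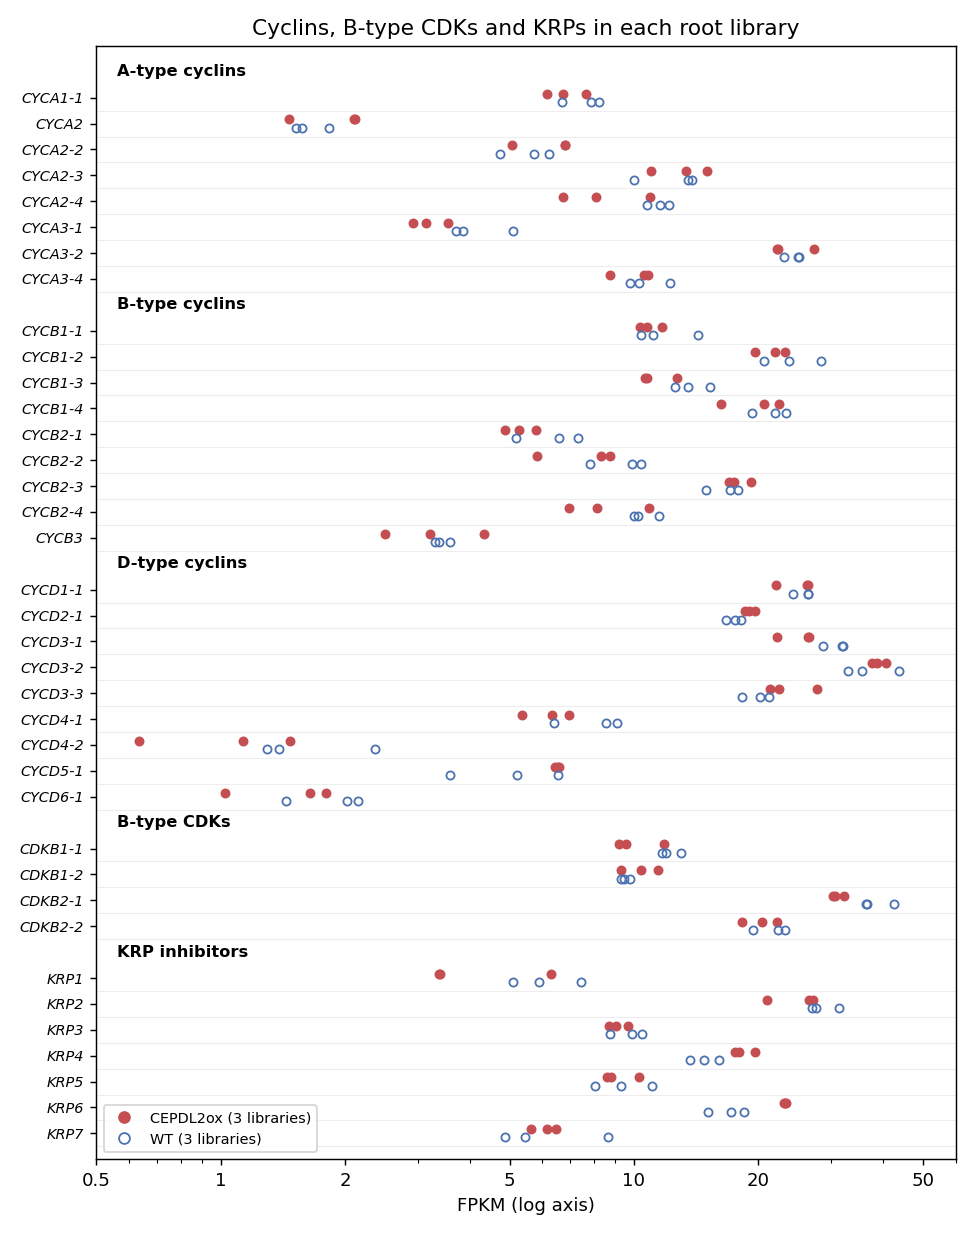
FPKM of the 37 tested members in each root library on a log axis, by class. Filled red points are the 3 *CEPDL2ox* libraries and open blue points the 3 WT libraries. For *KRP6* the red points lie at 23.0 to 23.3 FPKM and the blue ones at 15.1 to 18.5 FPKM, while most other members overlap.

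The question was whether roots that overexpress *CEPDL2* differ from WT in the transcripts of this machinery. A gene was called when limma's p, adjusted over 19597 genes by the method of Benjamini and Hochberg, was under 0.05. A single member, *KRP6*, was called higher and no member was called lower, against 3.71% of all tested genes called higher and 2.0% called lower. No member also passed a log2 fold change above 1 or under -1, which 1.59% of all genes did. At an unadjusted p under 0.05 there were 2 members higher, *KRP6* and *KRP4* (11.4% of all genes were), and 3 lower, *CYCA2-4*, *CYCD3-1* and *CDKB2-1* (11.8% of all genes). Calls over all genes were 728 higher and 392 lower, and with libraries scaled to the same summed FPKM they were 552 higher and 711 lower.

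The median log2 fold change of log2(FPKM + 1) was -0.09 over the 37 tested members and -0.03 over all tested genes. It was below 0 in 26 of 37 members (70.3%), against 54.5% of all genes, and in 24 of 37 without WT replicate 1. With a library left out the count ran between 23 (without *CEPDL2ox* replicate 2 or 3) and 28 (without WT replicate 2). At the same summed FPKM the medians were -0.18 and -0.11, and 28 of 37 members were below 0, against 67.1% of all genes. Fewer dividing cells in a root and less RNA per cell cannot be told apart in such samples. The authors describe *CEPDL2ox* plants as having shorter roots and smaller rosettes than WT. The part of that growth difference in these values was not tested. At the pseudocount of 1, the 95% interval of the log2 fold change lay within -1 and 1 for 37 of 37 members and for 87.6% of all genes. The lowest bounds were -0.992 (*KRP1*) and -0.988 (*CYCD4-2*), and the highest was 0.77 (*CYCD5-1*). A smaller pseudocount widens the changes of low genes, and whether these intervals then stay within -1 was not tested. The groups did not overlap in 4 members that were higher (13.8% of all genes) and 3 that were lower in *CEPDL2ox* (16.1% of all genes), with *CYCA3-1*, *CYCD3-1* and *CDKB2-1* the lower ones.

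**Figure D2:**
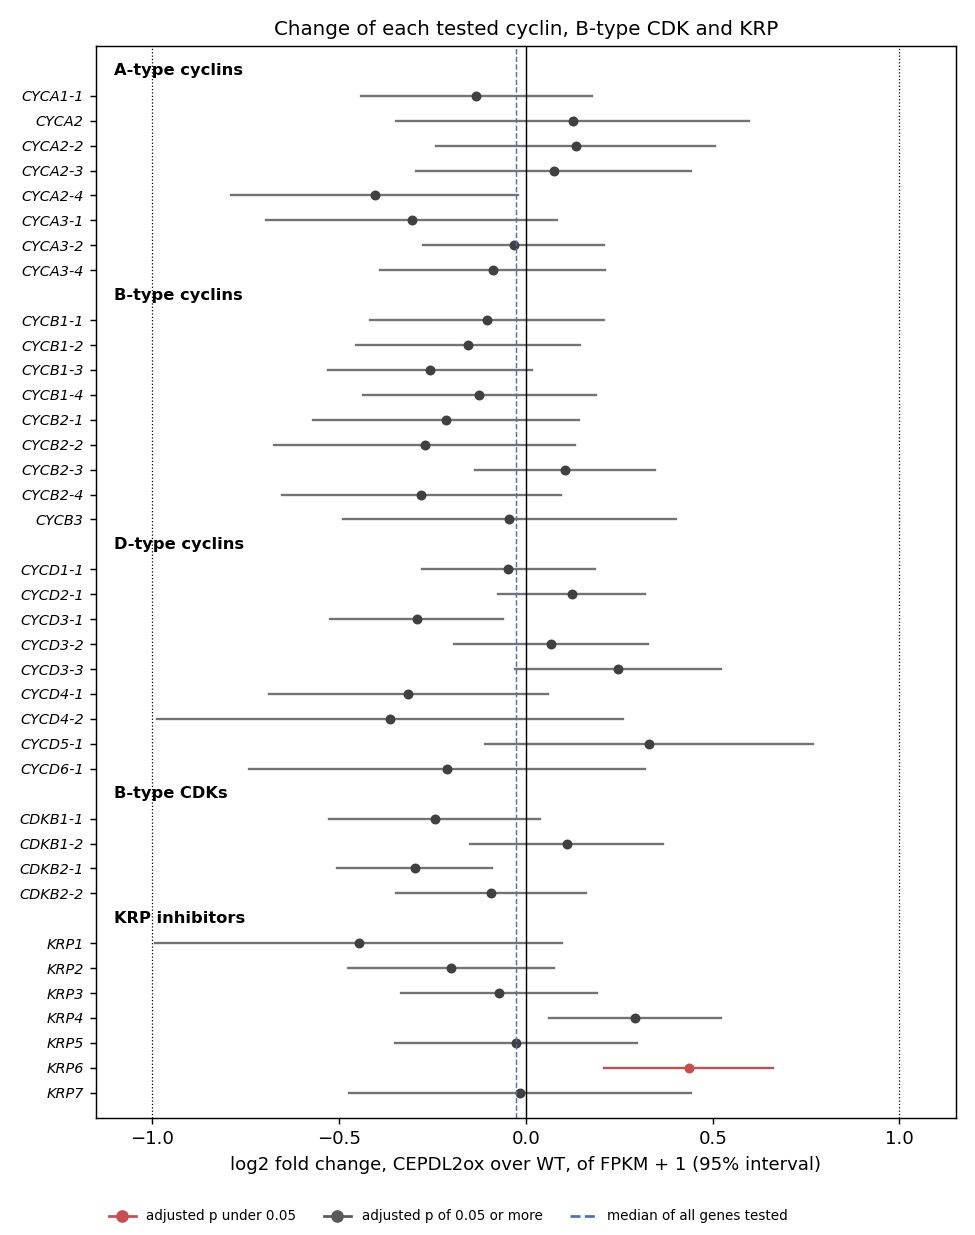
Log2 fold change, *CEPDL2ox* over WT, of each tested member with its 95% interval from limma on log2(FPKM + 1). Dotted lines stand at -1 and 1, and the dashed line is the median of all genes tested (-0.03). The *KRP6* interval, in red, runs between 0.21 and 0.66, and no member's interval reaches a dotted line.

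D-type cyclins were the class with the highest summed level, at 149.6, 148.2 and 144.0 FPKM in *CEPDL2ox* libraries and 159.1, 141.8 and 143.2 FPKM in WT libraries. WT replicate 1 was the highest of the 6, and the other WT libraries lay below every *CEPDL2ox* library. Their log2 fold changes had a median of -0.05, and 4 of 9 tested members were above 0. *CYCD3-2*, which with its paralogs keeps cells dividing and delays their endocycles, was at 40.8, 37.7 and 38.8 FPKM in *CEPDL2ox* libraries and at 43.8, 33.0 and 35.7 FPKM in WT libraries. These groups overlapped (log2 fold change 0.07 ± 0.11 SE, adjusted p = 0.76). The highest of its values was that of WT replicate 1, and without it the log2 fold change was 0.18 (adjusted p = 0.33).

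The paralogs *CYCD3-1* and *CYCD3-3* lay on opposite sides of WT. *CYCD3-1*, a cyclin that responds to cytokinin and sucrose, was at 26.4, 22.2 and 26.5 FPKM in *CEPDL2ox* and at 32.0, 28.6 and 31.8 FPKM in WT. Every *CEPDL2ox* value was under every WT value, with a log2 fold change of -0.29 ± 0.10 SE that did not pass the adjustment (adjusted p = 0.13). In TAIR10.1 its gene overlaps AT4G34150 on the same strand, but 0.0% of its 75-base windows are shared. In the deposited TAIR10 positions AT4G34150 ends at chr4:16357293 and *CYCD3-1* starts at chr4:16357639, without overlap. AT4G34150 was called higher (62.0 ± 10.9 FPKM in *CEPDL2ox* and 40.1 ± 3.23 FPKM in WT, SD, n = 3 each, limma adjusted p = 0.037). The part of that neighbour in the *CYCD3-1* value was not tested. *CYCD3-3* was at 21.4, 27.7 and 22.5 FPKM in *CEPDL2ox* and at 21.3, 20.16 and 18.2 FPKM in WT. Its groups did not overlap, by a margin of 21.39 against 21.26 FPKM (log2 fold change 0.25, adjusted p = 0.26, and 0.14 without *CEPDL2ox* replicate 2).

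*CYCD5-1* and *CYCD4-2* had the largest log2 fold changes of the D-type cyclins over all 6 libraries, and neither passed. *CYCD5-1*, linked to endoreduplication by natural variation, was at 6.46, 6.58 and 6.54 FPKM in *CEPDL2ox* and at 6.54, 3.58 and 5.22 FPKM in WT (0.33 ± 0.19 SE, adjusted p = 0.34). The *CEPDL2ox* values were close together while the WT values were spread, and WT replicate 1 lay among the *CEPDL2ox* values. Coefficients of variation were 0.97% in *CEPDL2ox* and 28.9% in WT, on an estimated 37 to 64 reads per library. The log2 fold change of *CYCD5-1* was 0.49 without WT replicate 1 and 0.14 without WT replicate 2. *CYCD4-2* was at 1.47, 0.63 and 1.13 FPKM in *CEPDL2ox* and at 2.36, 1.296 and 1.38 FPKM in WT, with overlap (-0.36 ± 0.27 SE, adjusted p = 0.46). Its log2 fold change was -0.19 without WT replicate 1 and -0.20 without *CEPDL2ox* replicate 2.

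The remaining D-type cyclins had log2 fold changes between -0.32 (*CYCD4-1*) and 0.12 (*CYCD2-1*). *CYCD4-1*, which acts in lateral root formation, averaged 6.22 ± 0.82 FPKM in *CEPDL2ox* and 8.02 ± 1.42 FPKM in WT (SD, n = 3 each). *CYCD2-1*, a sucrose-responsive cyclin, was at 18.6, 19.0 and 19.6 FPKM in *CEPDL2ox* and at 18.2, 17.5 and 16.7 FPKM in WT, without overlap and with an adjusted p of 0.43 in limma's fit. *CYCD1-1* averaged 24.9 FPKM in *CEPDL2ox* and 25.7 FPKM in WT. *CYCD6-1*, the cyclin that SHORTROOT and SCARECROW switch on for the division that splits cortex and endodermis, averaged 1.49 FPKM in *CEPDL2ox* and 1.87 FPKM in WT. Of its 75-base windows in TAIR10.1, 17.5% occur also in the opposite-strand neighbour AT4G03260, and the libraries did not keep strand. In the deposited TAIR10 positions AT4G03260 ends at chr4:1431663 and *CYCD6-1* starts at chr4:1432375, without overlap. The part of shared reads in the *CYCD6-1* value was not tested.

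A-type cyclins summed to a mean of 74.4 ± 3.51 FPKM in *CEPDL2ox* and 78.9 ± 3.15 FPKM in WT (SD, n = 3 each). Of 8 tested, 3 were above 0 and 5 below, with a median log2 fold change of -0.06. *CYCA3-2*, the highest, was at 22.3, 27.3 and 22.2 FPKM in *CEPDL2ox* and at 25.1, 25.0 and 23.1 FPKM in WT, with overlap (-0.03 ± 0.10 SE, adjusted p = 0.88). Its family is expressed around DNA synthesis.

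*CYCA2-4*, whose family pairs with CDKB1 to hold back endoreduplication, was at 10.95, 8.11 and 6.73 FPKM in *CEPDL2ox* and at 12.2, 11.6 and 10.8 FPKM in WT. *CEPDL2ox* replicate 1 lay among the WT values and the other *CEPDL2ox* libraries were lower (log2 fold change -0.40 ± 0.17 SE, adjusted p = 0.20, and -0.26 without *CEPDL2ox* replicate 3). *CYCA3-1* was at 3.55, 3.14 and 2.92 FPKM in *CEPDL2ox* and at 3.70, 3.86 and 5.09 FPKM in WT. Every *CEPDL2ox* value was under every WT value, but the difference did not pass (-0.31 ± 0.17 SE, adjusted p = 0.32, and -0.19 without WT replicate 3).

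Of the other *CYCA2* genes, *CYCA2-2* averaged 6.22 FPKM in *CEPDL2ox* and 5.57 FPKM in WT. *CYCA2-3*, a repressor of endocycles, averaged 13.1 FPKM in *CEPDL2ox* and 12.4 FPKM in WT. AT5G25380, listed as *CYCA2*, averaged 1.89 FPKM in *CEPDL2ox* and 1.64 FPKM in WT. These were the 3 members of the class with a positive log2 fold change (between 0.07 and 0.13), and their groups overlapped. *CYCA1-1*, a mitotic A-type cyclin, averaged 6.84 FPKM in *CEPDL2ox* and 7.60 FPKM in WT. *CYCA3-4* averaged 10.05 FPKM in *CEPDL2ox* and 10.8 FPKM in WT.

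B-type cyclins summed to 111.7, 100.1 and 108.5 FPKM in *CEPDL2ox* libraries and to 126.2, 116.8 and 111.5 FPKM in WT libraries. The log2 fold change was below 0 in 8 of 9 tested members (54.5% of all genes were), with a median of -0.15, and was above 0 in *CYCB2-3*. None passed the adjustment or reached an unadjusted p under 0.05. Without WT replicate 1, 7 of 9 were below 0 and the median was -0.19. Without *CEPDL2ox* replicate 2, 6 of 9 were below 0 and the median was -0.09, the nearest to 0 with a library left out. The farthest was -0.26, without WT replicate 3.

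*CYCB1-2*, the highest of the class, was at 21.9, 19.6 and 23.3 FPKM in *CEPDL2ox* and at 28.4, 23.8 and 20.7 FPKM in WT. The groups overlapped, and the value farthest from the rest was that of WT replicate 1 (log2 fold change -0.15 ± 0.13 SE, adjusted p = 0.51). Without that library it was -0.04. *CYCB1-1*, the cyclin whose promoter is used to mark cells in mitosis, averaged 10.9 ± 0.71 FPKM in *CEPDL2ox* and 11.9 ± 2.08 FPKM in WT (SD, n = 3 each). Its log2 fold change was -0.10, and 0.02 without WT replicate 1.

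*CYCB2-2* was at 8.34, 8.76 and 5.83 FPKM in *CEPDL2ox* and at 10.4, 9.90 and 7.83 FPKM in WT, with overlap (-0.27 ± 0.17 SE, adjusted p = 0.39). Its log2 fold change was -0.11 without *CEPDL2ox* replicate 3 and -0.20 without WT replicate 1. *CYCB2-4* was at 10.9, 6.96 and 8.14 FPKM in *CEPDL2ox* and at 10.0, 11.53 and 10.2 FPKM in WT, also with overlap (-0.28 ± 0.16 SE, adjusted p = 0.34). Here it was -0.15 without *CEPDL2ox* replicate 2 and -0.44 without *CEPDL2ox* replicate 1. CYCB2 proteins partner CDKs at the entry into mitosis. *CYCB1-3* (-0.26), *CYCB2-1* (-0.21), *CYCB1-4* (-0.12) and *CYCB3* (-0.04) had log2 fold changes of the same sign. *CYCB2-3* averaged 17.9 FPKM in *CEPDL2ox* and 16.6 FPKM in WT (0.10), and 15.0% of its windows are shared with *CYCB2-5*.

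B-type CDKs, which are particular to plants and act at the entry into mitosis, were between 71.1 and 72.9 FPKM in sum in *CEPDL2ox* libraries and between 77.5 and 88.1 FPKM in WT libraries. Over all 6 libraries this was the class whose sums did not overlap. *CDKB2-1*, needed for an ordered shoot meristem, was at 32.3, 30.3 and 30.6 FPKM in *CEPDL2ox* and at 36.4, 42.6 and 36.6 FPKM in WT. Every *CEPDL2ox* value was under every WT value, by a log2 fold change of -0.30 ± 0.09 SE. It had the lowest p of the members below 0 and did not pass the adjustment (adjusted p = 0.099). Without WT replicate 1 the log2 fold change was -0.34 (adjusted p = 0.15).

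*CDKB1-1*, which with A-type cyclins holds back endoreduplication, was at 9.20, 9.59 and 11.8 FPKM in *CEPDL2ox* and at 12.0, 13.0 and 11.7 FPKM in WT. *CEPDL2ox* replicate 3 lay among the WT values (-0.24 ± 0.12 SE, adjusted p = 0.27). *CDKB2-2* averaged 20.3 ± 1.96 FPKM in *CEPDL2ox* and 21.7 ± 1.99 FPKM in WT (SD, n = 3 each). *CDKB1-2* averaged 10.4 FPKM in *CEPDL2ox* and 9.51 FPKM in WT, and 12.4% of its windows are shared with the opposite-strand gene AT2G38630.

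KRP inhibitors summed to 100.1, 94.96 and 90.6 FPKM in *CEPDL2ox* and to 97.2, 89.4 and 89.3 FPKM in WT, where WT replicate 1 lay among the *CEPDL2ox* sums and the other WT libraries below them. Of 7 tested, 2 were above 0 and 5 below, with a median log2 fold change of -0.03 (0.01 under quantile normalization). *KRP6* lies at chr3:6616352-6617696 in TAIR10 (AT3G19150) and encodes an inhibitor known from the divisions of the germ line, where its removal lets cells divide. It was at 23.0, 23.2 and 23.3 FPKM in *CEPDL2ox* libraries and at 17.2, 18.5 and 15.1 FPKM in WT libraries. Every *CEPDL2ox* value was above every WT value, and the *CEPDL2ox* values were close to each other. Their coefficient of variation was 0.56%, against 10.4% in *CEPDL2ox* for the median member. The *KRP6* values rest on an estimated 96 to 138 reads per library, and the part of so narrow a spread in the call was not tested.

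The *KRP6* mean was 136.9% of that of WT (23.2 ± 0.13 FPKM in *CEPDL2ox* and 16.9 ± 1.69 FPKM in WT, SD, n = 3 each). Its log2 fold change was 0.44 ± 0.10 SE, with an adjusted p of 0.044 in limma's fit. The exact two-sided permutation test gave p = 0.10, the smallest that 3 libraries against 3 allow. No 75-base window of *KRP6* occurs in another transcript and no other gene overlaps it. The call ended when any of the 6 libraries was left out (adjusted p between 0.062 and 0.13) and under 4 of the other alternatives. Its log2 fold change stayed between 0.35 and 0.50 under all 14.

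*KRP4*, known in the shoot meristem for linking cell size to the start of DNA synthesis, was at 19.6, 17.5 and 17.9 FPKM in *CEPDL2ox* and at 16.05, 14.8 and 13.6 FPKM in WT. Every *CEPDL2ox* value was above every WT value, without passing the adjustment (0.29 ± 0.10 SE, adjusted p = 0.13). Of its windows in TAIR10.1, 35.7% are shared with the opposite-strand gene *CYTB5-B*. That gene was between 115.3 and 119.3 FPKM in *CEPDL2ox* and between 121.6 and 132.3 FPKM in WT. In the deposited TAIR10 positions *KRP4* ends at chr2:13875831 and *CYTB5-B* starts at chr2:13876774, without overlap. The part of shared reads in the *KRP4* value was not tested.

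*KRP2*, the highest of the class and a brake on lateral root initiation, was at 26.5, 27.1 and 21.0 FPKM in *CEPDL2ox* and at 31.3, 27.0 and 27.5 FPKM in WT. The groups overlapped (-0.20 ± 0.12 SE, adjusted p = 0.35, and -0.09 without *CEPDL2ox* replicate 3). *KRP1*, the lowest of the class, was at 6.28, 3.39 and 3.38 FPKM in *CEPDL2ox* and at 7.45, 5.10 and 5.90 FPKM in WT. *CEPDL2ox* replicate 1 lay among the WT values and the others were lower (-0.45 ± 0.23 SE, adjusted p = 0.29, and -0.69 without *CEPDL2ox* replicate 1). On log2(FPKM + 1) this was the largest log2 fold change of a member by size, and 85.2% of all tested genes had one no larger. By the ratio of mean FPKM, *CYCD4-2* was farther from WT (64.3% of WT) than *KRP1* (70.8% of WT). *KRP3* (-0.07), *KRP5* (-0.03) and *KRP7* (-0.02) had log2 fold changes near 0, with groups that overlapped.

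**Figure D3:**
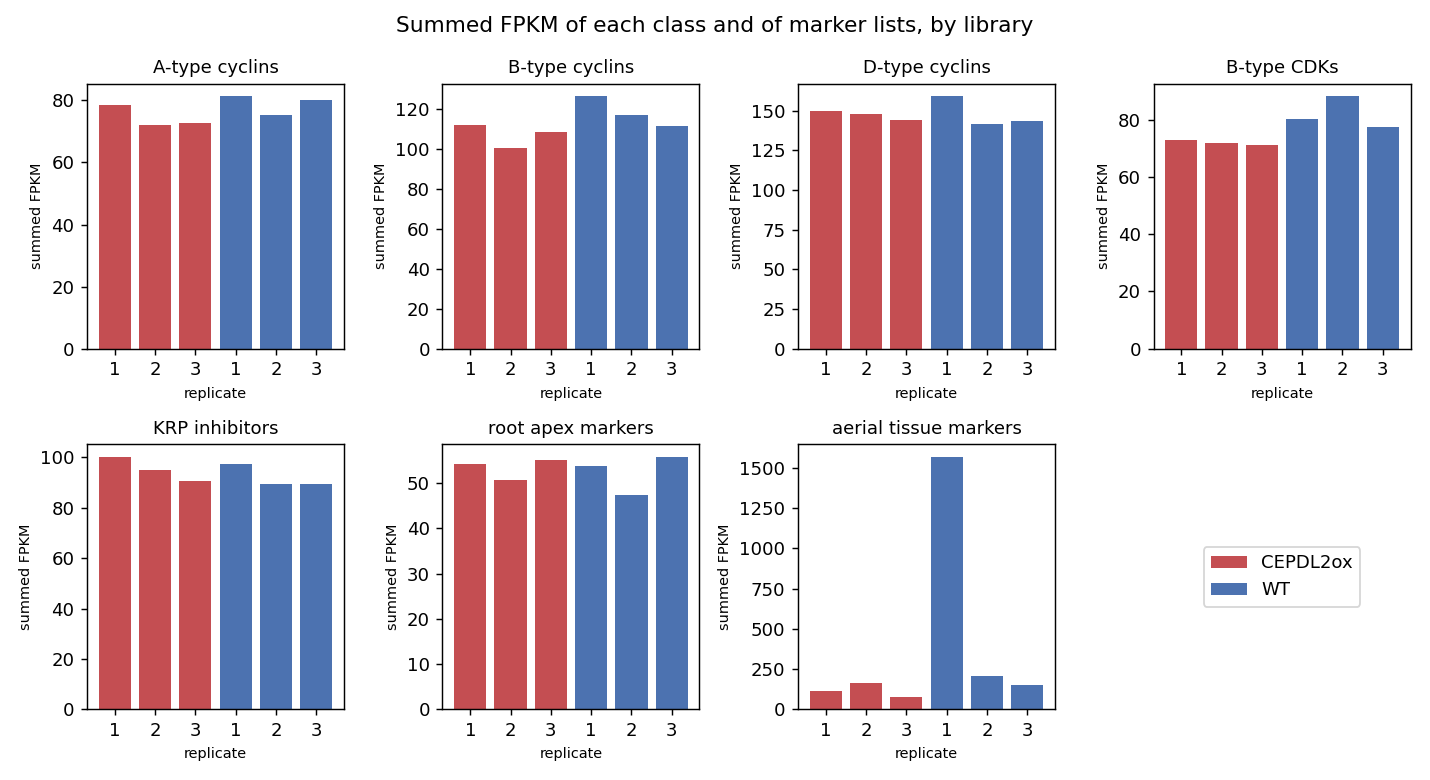
Summed FPKM of each class and of 2 marker lists in each library, *CEPDL2ox* replicates in red and WT replicates in blue, all axes from 0. B-type CDKs sum to at most 72.9 FPKM in *CEPDL2ox* and at least 77.5 FPKM in WT, and the aerial tissue markers reach 1566 FPKM in WT replicate 1.

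WT replicate 1 gave the highest value in 13 of 37 tested members (35.1%), against 16.5% of all genes. It did so in 4 of 9 B-type and 4 of 9 D-type cyclins, 3 of 7 KRPs, 2 of 8 A-type cyclins and 0 of 4 B-type CDKs. The aerial signal was highest in the same library, and its part in these values was not tested. Without this library no member was called, and the median log2 fold change of the members was -0.09.

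Members with an AACGG match in the promoter had a median log2 fold change of -0.15 (15 tested), and those without had -0.04 (22 tested). Over all tested genes it was -0.03 with a match (4170 genes) and -0.03 without (14869 genes). By class, the median with a match and without was -0.13 and -0.03 for A-type cyclins and -0.18 and -0.12 for B-type cyclins. It was -0.29 (1 gene) and 0.01 for D-type cyclins, and -0.14 and 0.29 for KRPs. Among B-type CDKs the order was the other way, with -0.09 for the 1 with a match and a median of -0.24 for the 3 without. *KRP1*, printed above with 6 matches, had a log2 fold change of -0.45, but *CYCA2-4* (-0.40), *CYCD4-2* (-0.36) and *CYCD4-1* (-0.32) held no match. These are descriptions, since the match and the class of a member go together and each class holds few genes.

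The other genes of the cycle were taken from a list of 47, all tested, of which 32 had a log2 fold change below 0 (68.1%, against 54.5% of all genes), with a median of -0.05. In this list 1 gene was called higher (2.13%, against 3.71% of all genes) and 0 lower (2.0% of all genes were). At an unadjusted p under 0.05, 2 were higher and 9 lower. These were 4.26% and 19.1% of the list, against 11.4% and 11.8% of all genes. Without overlap of the groups, 2 were higher (4.26%, against 13.8% of all genes) and 12 lower (25.5%, against 16.1%). *CDKA;1*, the main CDK that D-type cyclins bind, was at 45.4, 44.6 and 42.0 FPKM in *CEPDL2ox* and at 45.7, 49.996 and 41.5 FPKM in WT. Its groups overlapped (log2 fold change -0.05 ± 0.09 SE, adjusted p = 0.77).

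The gene called higher was *SMR4* (AT5G02220), a CDK inhibitor of the SIAMESE family, which slows division where it is overexpressed. It was at 11.4, 13.7 and 14.7 FPKM in *CEPDL2ox* and at 7.10, 6.69 and 6.42 FPKM in WT. With its transcript length in TAIR10.1 these values rest on an estimated 20 to 41 reads per library. Its span in the deposited TAIR10 positions (chr5:441707-442146) is shorter than that length, and the estimate would be lower with it. The groups did not overlap (0.88 ± 0.12 SE, adjusted p = 0.0084). The adjusted p was between 0.0073 and 0.047 under all 14 alternatives. Its relative *SIM*, the founding member of the family, was at 101.7, 114.3 and 94.2 FPKM in *CEPDL2ox* and at 89.0, 81.7 and 93.8 FPKM in WT (0.23, adjusted p = 0.20). The 7 SIAMESE-family genes tested had a median log2 fold change of 0.14, with 5 above 0. *SMR5* was spread within both groups, between 0 and 16.7 FPKM in *CEPDL2ox* and between 3.89 and 15.6 FPKM in WT. It rests on an estimated 0 to 6 reads per library.

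Genes of DNA replication were below 0 in 9 of 10 (between 8 and 10 of 10 over the alternatives), against 54.5% of all genes, with a median of -0.25 (-0.34 at the same summed FPKM). None passed the adjustment, 5 were lower at an unadjusted p under 0.05 (11.8% of all genes) and 5 were lower without overlap (16.1% of all genes). Chosen after the values were seen, *MCM7*, a subunit of the replicative helicase, averaged 13.4 ± 1.79 FPKM in *CEPDL2ox* and 19.6 ± 2.17 FPKM in WT (SD, n = 3 each). Its groups did not overlap (limma, -0.52 ± 0.13 SE, adjusted p = 0.058). *MCM6* averaged 4.92 ± 0.32 FPKM in *CEPDL2ox* and 7.32 ± 0.81 FPKM in WT (SD, n = 3 each; limma, -0.49 ± 0.13 SE, adjusted p = 0.074). The 5 genes of mitosis and cytokinesis, among them *KNOLLE*, which acts at the cell plate, were all below 0, with a median of -0.08, 0 called by limma and 0 at an unadjusted p under 0.05.

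**Figure D4:**
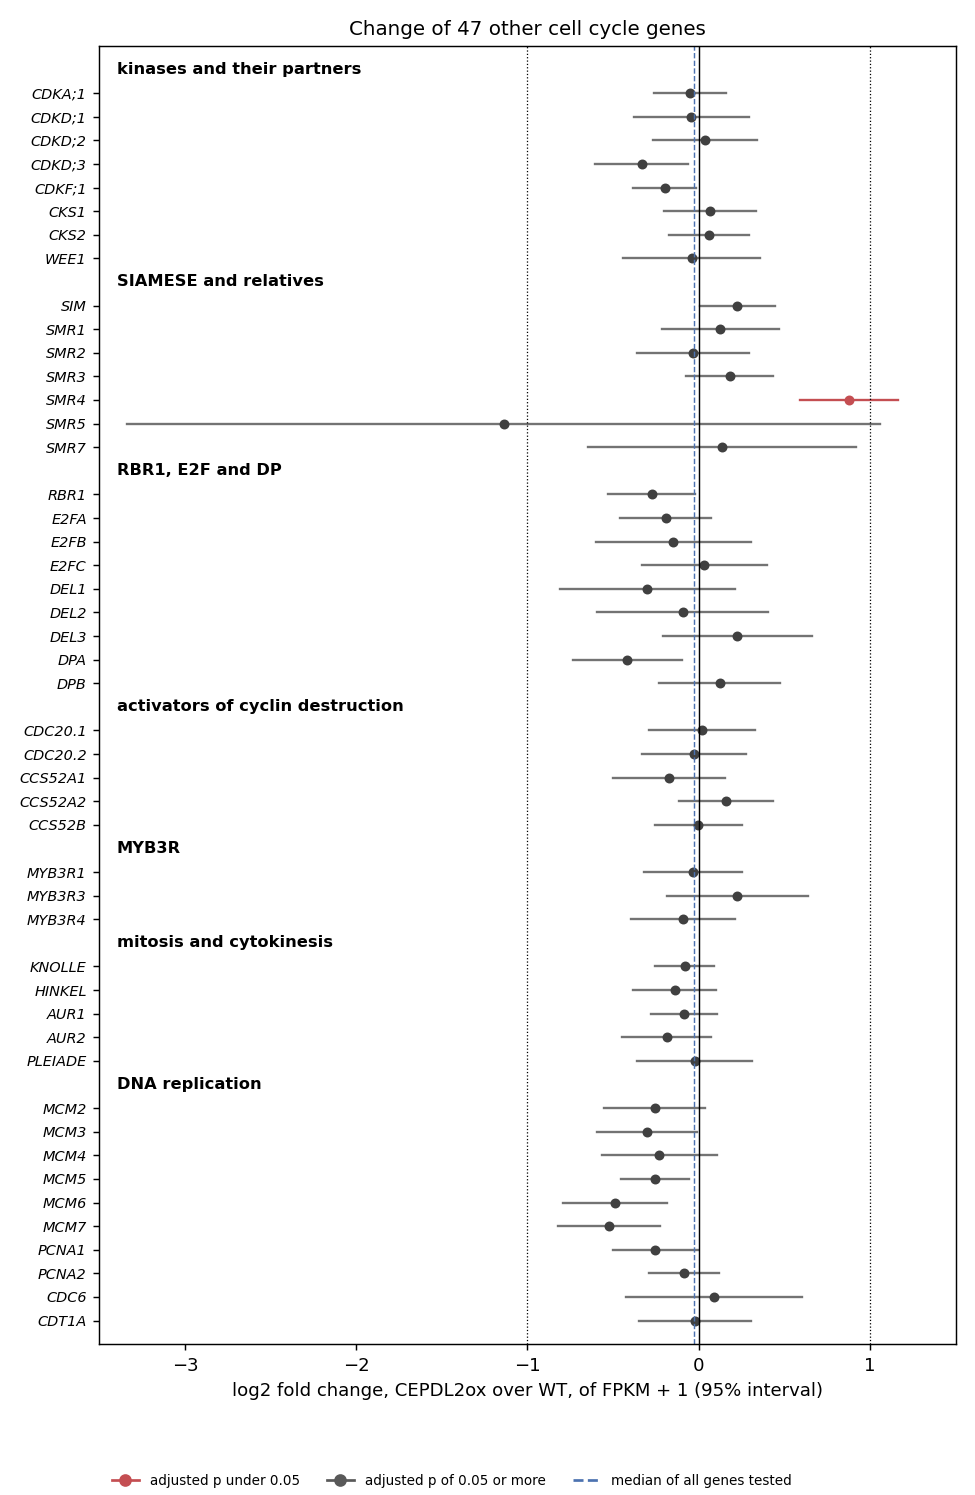
Log2 fold change, *CEPDL2ox* over WT, of 47 other cell cycle genes with 95% intervals from limma on log2(FPKM + 1), by role. Dotted lines stand at -1 and 1, and the dashed line is the median of all genes tested. *SMR4*, in red, is the gene called, at 0.88, and 9 of 10 replication genes lie left of 0.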

How the data were processed

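RNA from the roots was made into unstranded libraries (TruSeq v2) and read as single-end 75-base reads. The authors mapped them to TAIR10 with the illumina pipeline and deposited FPKM per gene, 1 table per library and 33557 genes. The quantification tool is not given in the sources used here. The tables hold no counts, so depth was estimated from the FPKM of a single read. Reads per gene were estimated with the longest transcript in TAIR10.1, which can differ in length from the TAIR10 transcript behind the FPKM.

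log2(FPKM + 1) was fitted in R 4.3.3 with limma 3.58.1 (eBayes with trend) over the 19597 genes that averaged 1 FPKM or more, with Benjamini-Hochberg adjustment over all. The pseudocount understates changes of low genes. Single genes also had an exact permutation test. Python 3.11.15 and pandas 2.3.3 were used to join the tables.

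Values in every library are given for the called members and, per class, the highest member and the 2 with the largest log2 fold change. Other members without overlap between groups, and *SIM*, were added after their values were seen. The members and lists were chosen with earlier results of these data known. A 48th listed gene whose name could not be matched was left out. Gene starts in the tables count from 0, and 1 was added. Promoters and shared windows come from TAIR10.1.

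The alternatives were a pseudocount of 0.1, no filter, a filter at 5 FPKM, 3 other scalings, no trend, the replicate number as a block, and leaving out each library.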

Additional observations from a re-analysis of the deposited data

How the results depend on the processing

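No member was called, in place of 1, with no filter, with libraries scaled to the same summed FPKM, without the intensity trend, with the replicate block and without any library in turn (0 in each). The adjusted p of *KRP6* was 0.059, 0.099, 0.067 and 0.082 in the first 4, and ranged from 0.033 to 0.13 over the 14 alternatives. Replicate numbers did not pair the libraries (same-number correlations -0.03, 0.02 and 0.00064), and the replicate block left 560 genes higher and 280 lower. Genes called lower numbered 258 with no filter, 711 at the same summed FPKM and 211 without the trend, against 392. With a library left out, between 259 and 434 genes were higher and between 99 and 176 lower. No member was called lower, or passed the log2 fold threshold of 1, under any of them.

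Of 513 member values under alternatives, 484 kept direction and side of the threshold, 10 (those of *KRP6* above) lost the call, and 19, in 9 members, changed sign, the largest at 0.20. At the same summed FPKM, *CYCA2-3* was -0.0100 and *CYCD3-2* -0.0220. Quantile normalization gave 0.0096 for *KRP5* and 0.0249 for *KRP7*, and the median of ratios 0.00038 for *KRP7*. Leaving out a library gave between -0.0640 and 0.188 for *CYCA2-3*, -0.127 and 0.0159 for *CYCA3-2*, -0.190 and 0.0233 for *CYCB1-1*, -0.22 and 0.0042 for *CYCB1-4*, and -0.20 and 0.10 for *CYCB3*. It gave between -0.0914 and 0.0357 for *CYCD1-1*, -0.0172 and 0.181 for *CYCD3-2*, -0.128 and 0.0802 for *KRP5*, -0.159 and 0.200 for *KRP7*, and -0.117 and 0.0146 for *CDKA;1*. The cause was not tested. A value of 1 FPKM on 1 kb rests on 4.12 to 5.0 reads. Among the tested members this limits *CYCD4-2*, *CYCD6-1* and AT5G25380 most.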
